A study of Mus musculus with 6 samples.

Results

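The genes described here encode secreted liver proteins that act on metabolism, known as hepatokines, together with angiopoietin-like proteins. They are the 9 rows of the deposited table whose symbols are Dpp4, Ahsg, Fetub, Angptl4, Angptl8, Inhbe, Selenop, Enho and Tsku, out of 22274 genes in all. All 9 passed the filter on low counts. RNA was measured by mRNA sequencing in 6 livers or liver samples of C57 mice. The 3 samples of the Ad-Dyrk1b group came from animals given an adenovirus that overexpresses mouse Dyrk1b, a dual-specificity kinase. The 3 samples of the Ad-EGFP group came from animals given a control adenovirus, so both groups carried a virus and no uninfected liver was included. The labels give no age, sex, time after infection, viral promoter or feeding state. Whether each sample is its own animal is not stated either, so the p-values reflect only how far these samples scatter, and that scatter may be technical.

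Hepatokines let the liver signal to fat, muscle and other organs. Ahsg and Fetub encode fetuin-A and fetuin-B, abundant plasma proteins of the cystatin superfamily. Fetuin-A inhibits the insulin receptor tyrosine kinase, and fetuin-B inhibits the metalloproteinase ovastacin and has been linked to glucose intolerance. ANGPTL4 and ANGPTL8 restrain lipoprotein lipase, the enzyme that releases fatty acids from circulating triglyceride. ANGPTL4 is raised by fasting and by PPAR-alpha, and ANGPTL8 is raised by feeding and insulin. Inhbe encodes the subunit of activin E, Selenop the selenium carrier of plasma, Enho the peptide adropin and Tsku the leucine-rich proteoglycan tsukushi. Dpp4 encodes a membrane-bound and shed peptidase that inactivates the incretin hormones.

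The libraries held 17326516 to 20024888 counts. Across genes, which are not independent, pairs of libraries in the same group had r = 0.982 to 0.986 for log2 expression, and pairs from different groups had 0.960 to 0.970. Dyrk1b stood at 3.81 to 4.97 FPKM (the length-scaled and depth-scaled values of the authors) in Ad-EGFP and at 62.2 to 100.7 FPKM in Ad-Dyrk1b libraries. Of 9 hepatocyte markers in the table, edgeR called 0, with 3 at an unadjusted p under 0.05, beside 3757 of all 13201 genes tested. DESeq2 called 2 of the 9 markers lower and limma-voom 0. Of the 9, 2 had a log2 fold change above 0, and the median was -0.11. Their summed level was 83640 to 86800 CPM (counts scaled to a common library total) in Ad-EGFP and 66410 to 81640 CPM in Ad-Dyrk1b. Ad-Dyrk1b replicate 3 had the most haemoglobin transcript, 3613 CPM. Ad-Dyrk1b replicates 1 and 2 had 871.9 and 1020 CPM, and the Ad-EGFP libraries 512.8, 701.1 and 860.4 CPM, so the groups did not overlap. All 6 erythroid markers had a log2 fold change above 0, with a median of 1.51, and edgeR called 0 of them. The part of that library and of haemoglobin transcript in the results was not tested. Each named gene whose call was lost without Ad-Dyrk1b replicate 3 is marked as such.

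Of the 9 genes, Dpp4 and Fetub rose in Ad-Dyrk1b livers (edgeR quasi-likelihood test, adjusted p under 0.05 over all 13201 genes tested). Among all tested genes, 7.36% were called higher and 4.81% lower, and 12.2% in either direction. None of the 9 was called lower by edgeR, DESeq2 or limma-voom. By edgeR, 3 of the 9 had an unadjusted p under 0.05, as did 3757 of all 13201 genes tested. The 3 were the 2 called genes and Inhbe, whose log2 fold change was below 0. The log2 fold changes of the other 7 genes were all below 0 and ran from -0.34 to -0.02. The median of the 9 was -0.23, beside -0.00498 over all tested genes. In bulk tissue, fewer cells of a type and less RNA per cell cannot be told apart.

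**Figure D1:**
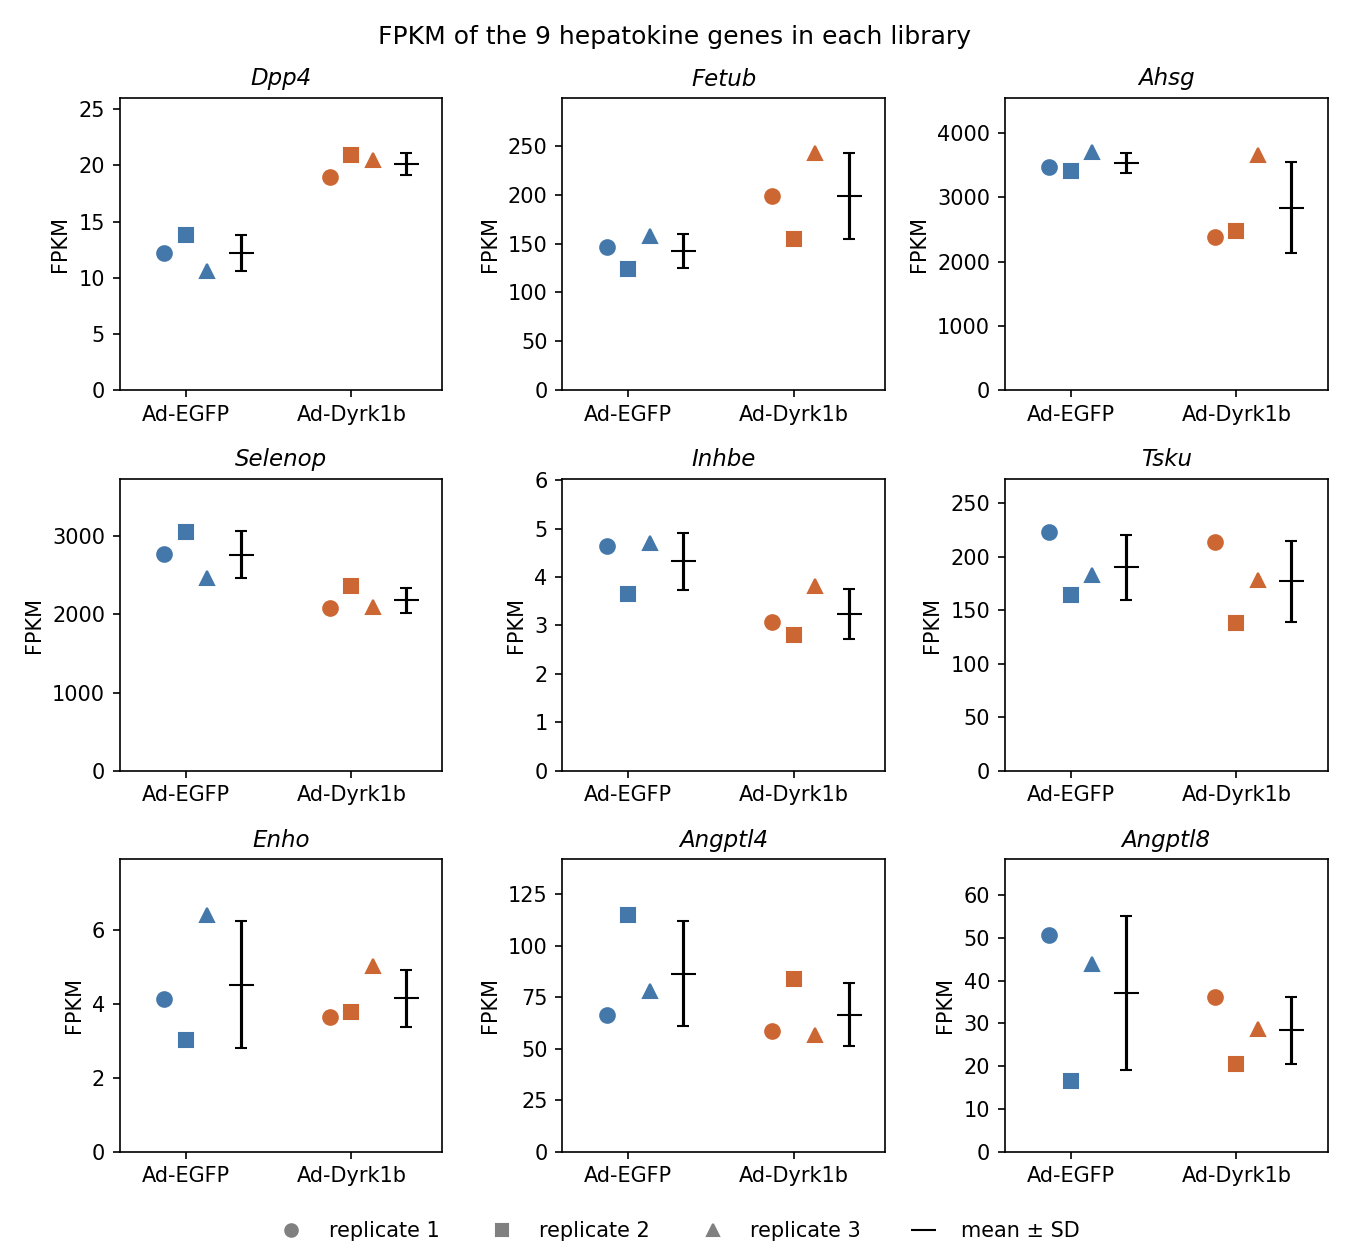
FPKM (vertical axis, from 0) of each of the 9 genes in the 3 Ad-EGFP (blue) and 3 Ad-Dyrk1b (orange) libraries, with the symbol marking the replicate number and the black bar the mean ± SD of a group. The groups are apart for Dpp4, from 10.6 to 13.8 against 19.0 to 20.9 FPKM, while the libraries mix for Ahsg, Tsku, Enho, Angptl4 and Angptl8.

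The 9 genes spanned a wide range of levels per length. In Ad-EGFP livers Ahsg stood highest, at 3534 ± 156 FPKM (SD, n = 3 here and below), followed by Selenop at 2761 ± 298 FPKM. Over all 6 libraries these were the genes with the 23rd and 26th highest mean FPKM of the 22274 in the table. Tsku (190.1 ± 30.3 FPKM), Fetub (143 ± 17.3 FPKM), Angptl4 (86.5 ± 25.5 FPKM), Angptl8 (37.0 ± 18.1 FPKM) and Dpp4 (12.2 ± 1.60 FPKM) followed in that order. Enho (4.52 ± 1.73 FPKM) and Inhbe (4.33 ± 0.587 FPKM) were lowest, and their libraries overlapped each other. No other pair of neighbours in this order overlapped in Ad-EGFP. In Ad-Dyrk1b libraries Fetub overlapped Tsku, and Angptl8 overlapped Dpp4, whose highest library of 20.9 FPKM exceeded the lowest of Angptl8, 20.5 FPKM.

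Dpp4 (ENSMUSG00000035000, mm10 chromosome 2, 62330073 to 62412231, minus strand, 26 exons) encodes dipeptidyl peptidase 4. Its promoter is shown because this gene had the smallest adjusted p of the 9. The sequence, from RefSeq on GRCm38.p6, covers the 250 bases before the start at 62412231, chr2:62412232-62412481, minus strand. Capitals mark a TATAAA match and, nearer the start, a match to TTTC, any 2 bases and TTTC again, the core of the element through which interferon-induced genes are read.

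Dpp4: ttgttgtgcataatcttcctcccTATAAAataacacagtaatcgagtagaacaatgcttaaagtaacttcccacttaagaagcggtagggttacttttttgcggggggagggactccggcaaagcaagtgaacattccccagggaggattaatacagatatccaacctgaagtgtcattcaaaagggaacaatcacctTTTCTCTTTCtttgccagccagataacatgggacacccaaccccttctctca

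The TATAAA match begins 227 bases and the match to that core 52 bases before the start. On both strands, TATAAA occurs in 12.4% and the core in 2.98% of 32851 promoter windows of this length. TTCNNNGAA (STAT factors, 7.02%), TGTTTNC (forkhead factors, 17.8%), CCAAT (33.8%) and GGGCGG (32.7%) have no match in the Dpp4 window. A match describes letters and is not evidence of a bound factor.

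In Ad-EGFP libraries 1, 2 and 3, Dpp4 stood at 12.2, 13.8 and 10.6 FPKM. In Ad-Dyrk1b libraries 1, 2 and 3 it stood at 19.0, 20.9 and 20.5 FPKM. Every Ad-Dyrk1b library lay above every Ad-EGFP library. The groups were also apart on CPM scaled by TMM (trimmed mean of M-values, a correction of library size), the scale on which 16.8% of tested genes did not overlap in this direction. Its log2 fold change was 0.81 ± 0.12 (SE; 95% interval 0.55 to 1.07; edgeR adjusted p = 0.00113), or 1.75-fold. The call held when any 1 library was left out (edgeR adjusted p = 0.00164 to 0.00861). Of all tested genes, 7.41% had a larger absolute log2 fold change. The count from antisense gene Gm13561, which shares 232 exonic bases with Dpp4, was not analysed here, and no strand setting is stated.

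Dpp4 is also made by T cells, bile duct cells and endothelium. The 12 T and NK cell markers summed to 30.1 to 41.6 CPM in Ad-EGFP and 45.7 to 69.0 CPM in Ad-Dyrk1b, against 55.9 to 72.8 and 99.9 to 110.01 CPM for Dpp4 alone. Of 10 of these markers tested, 9 had a log2 fold change above 0, with a median of 0.60, and 5 had an unadjusted p under 0.05. By edgeR and by DESeq2, 2 were called higher (Gzmb and Gzma by edgeR) and 0 lower, and limma-voom called 1 higher. Over all 13201 tested genes, edgeR called 7.36% higher and 4.81% lower, and 3757 had an unadjusted p under 0.05. Gzma lost its call on dropping Ad-EGFP replicate 1, 2 or 3 or Ad-Dyrk1b replicate 1 (edgeR adjusted p from 0.0340 to 0.142). The T cell receptor genes Cd3g and Trac had 25 to 43 against 47 to 82 counts and 38 to 60 against 70 to 90 counts (log2 fold change 0.81 and 0.64, edgeR adjusted p = 0.0971 and 0.117). Their groups were apart in counts, whereas Cd3e (25 to 34 against 33 to 56 counts) and Cd3d (20 to 39 against 21 to 32 counts) overlapped. The 7 bile duct markers summed to 202.4 to 250.4 CPM against 319 to 436 CPM, with 1 of 7 called higher by edgeR and by limma-voom and 2 by DESeq2. Of the 7, 5 had a log2 fold change above 0, with a median of 0.41, and 2 had an unadjusted p under 0.05. The gene edgeR called was Spp1, which macrophages also express, and Sox9, a duct transcription factor, had 0.67 ± 0.22 (edgeR adjusted p = 0.0680). Krt19 and Epcam, also duct markers, differed by 0.32 and -0.14 on the log2 scale (edgeR adjusted p = 0.547 and 0.756). The 10 endothelial markers summed to 187 to 285 CPM against 254 to 368 CPM, and all 10 had a log2 fold change above 0, with a median of 0.38. Of them edgeR called 0, with 4 at an unadjusted p under 0.05, while DESeq2 called 1 higher and limma-voom 0. The part of these cells in the Dpp4 result was not tested.

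Among 17 peptidases related to DPP4 and their hormone partners, 12 were tested, with a median log2 fold change of 0.11. Of these 12, 1 was called higher and 0 lower, beside 12.2% of all tested genes in either direction. The gene called was Anpep (aminopeptidase N), another membrane peptidase, at 53.1, 63.8 and 55.6 FPKM in Ad-EGFP and 94.2, 89.0 and 87.4 FPKM in Ad-Dyrk1b. Its groups did not overlap, and it rose by 0.72 ± 0.12 on the log2 scale (edgeR adjusted p = 0.00304). The cytosolic relatives Dpp8 and Dpp9 differed by -0.10 ± 0.11 and 0.32 ± 0.16 on the log2 scale (edgeR adjusted p = 0.598 and 0.214). Prep, a prolyl peptidase, had 0.20 ± 0.10 (edgeR adjusted p = 0.197). Fap, the closest relative of Dpp4, had 2 to 10 counts per library and was not tested. Glp1r, the receptor of a DPP4 substrate, stood at 0.02 to 0.13 FPKM, so its log2 fold change of 1.50 ± 0.55 (edgeR adjusted p = 0.0948) rests on few counts.

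Fetub (ENSMUSG00000022871, chromosome 16, 22918334 to 22939778, plus strand, 9 exons) was the other gene that rose. Its promoter is shown beside that of Dpp4 because these 2 genes were called in the same direction. RefSeq gives 2 starts, and the stretch shown belongs to the upstream start at 22918382. It ends before the first start in the GENCODE annotation, so it covers 202 bases, chr16:22918132-22918333, plus strand, GRCm38.p6. Capitals mark ATTGG, which is CCAAT read on the other strand, and GGGCGG.

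Fetub: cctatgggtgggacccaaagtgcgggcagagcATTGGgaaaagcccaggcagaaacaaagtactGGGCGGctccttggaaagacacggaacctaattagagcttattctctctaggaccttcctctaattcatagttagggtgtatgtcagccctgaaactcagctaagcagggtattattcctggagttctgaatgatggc

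Of the 9 genes, 7 had windows in the RefSeq table. TATAAA was found in windows of Dpp4, Fetub and Selenop, and for Fetub it lies outside the printed stretch. The forkhead motif was found in windows of Ahsg, Fetub and Selenop, again outside the printed stretch for Fetub, and the interferon element core in those of Dpp4 and Selenop.

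Fetub stood at 146, 124 and 158 FPKM in Ad-EGFP libraries 1, 2 and 3, and at 199, 155 and 243 FPKM in Ad-Dyrk1b libraries 1, 2 and 3. On this scale Ad-Dyrk1b replicate 2, at 155 FPKM, lay below Ad-EGFP replicate 3, at 158 FPKM, so the groups overlapped. On CPM scaled by TMM they did not. The log2 fold change was 0.59 ± 0.15 (95% interval 0.26 to 0.92; edgeR adjusted p = 0.0261), or 1.51-fold. The call was lost without Ad-EGFP replicate 1, 2 or 3 or Ad-Dyrk1b replicate 3 (edgeR adjusted p = 0.0626, 0.0831, 0.0525 and 0.0689, range 0.0133 to 0.0831). It was also lost with limma on log2(FPKM + 1), at an adjusted p of 0.112.

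Ahsg (ENSMUSG00000022868, chromosome 16, 22891277 to 22899449, plus strand, 7 exons) lies next to Fetub and was not called. It stood at 3469.8, 3420.2 and 3712 FPKM in Ad-EGFP and at 2381, 2484 and 3663 FPKM in Ad-Dyrk1b libraries 1, 2 and 3. Ad-Dyrk1b replicates 1 and 2 lay below all Ad-EGFP libraries, and replicate 3 lay within their range. Its log2 fold change was -0.23 ± 0.17 (95% interval -0.59 to 0.14; edgeR adjusted p = 0.409). Without Ad-Dyrk1b replicate 3, the library with the most haemoglobin transcript, it was -0.46 (edgeR adjusted p = 0.0563, and 0.0563 to 0.780 over all 6 omissions).

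The ratio of Fetub to Ahsg within a library does not depend on library size, but it was formed after both genes' values were seen and restates them. It was 0.0421, 0.0362 and 0.0426 in Ad-EGFP and 0.0834, 0.0622 and 0.0664 in Ad-Dyrk1b libraries, a 1.74-fold difference without overlap. The two-sided exact permutation p was 0.1, the smallest that 3 against 3 samples allow, and 0.133 adjusted over the 4 ratios computed, which were chosen after values were seen.

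Fetub and Ahsg share a 190.8 kb stretch of chromosome 16, from 22891277 to 23082078, with Hrg, Kng2 and Kng1, which encode related cystatin-type plasma proteins. Of 8 other cystatin superfamily genes 6 were tested, 4 were called higher and 0 lower, and the median log2 fold change was 0.50. Over all tested genes, edgeR called 7.36% higher and 4.81% lower, and the median was -0.00498. Kng2 and Kng1 encode kininogens, precursors of bradykinin. Kng2 stood at 89.9, 89.0 and 97.8 FPKM in Ad-EGFP and 118, 127 and 136 FPKM in Ad-Dyrk1b (log2 fold change 0.55 ± 0.11, edgeR adjusted p = 0.00722). Cst3, the protease inhibitor cystatin C, which is not at this locus, rose by 0.51 ± 0.10 (edgeR adjusted p = 0.00466). Omitting any 1 library ended neither call. Hrg (histidine-rich glycoprotein) rose by 0.49 ± 0.15 and Kng1 by 0.45 ± 0.14 (edgeR adjusted p = 0.0476 and 0.0473). The calls for these 2 were kept only without Ad-Dyrk1b replicate 1 (range 0.00768 to 0.145 for Hrg and 0.0338 to 0.140 for Kng1). Kng1 and Kng2 are close copies, so the split of reads between them is uncertain.

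**Figure D2:**
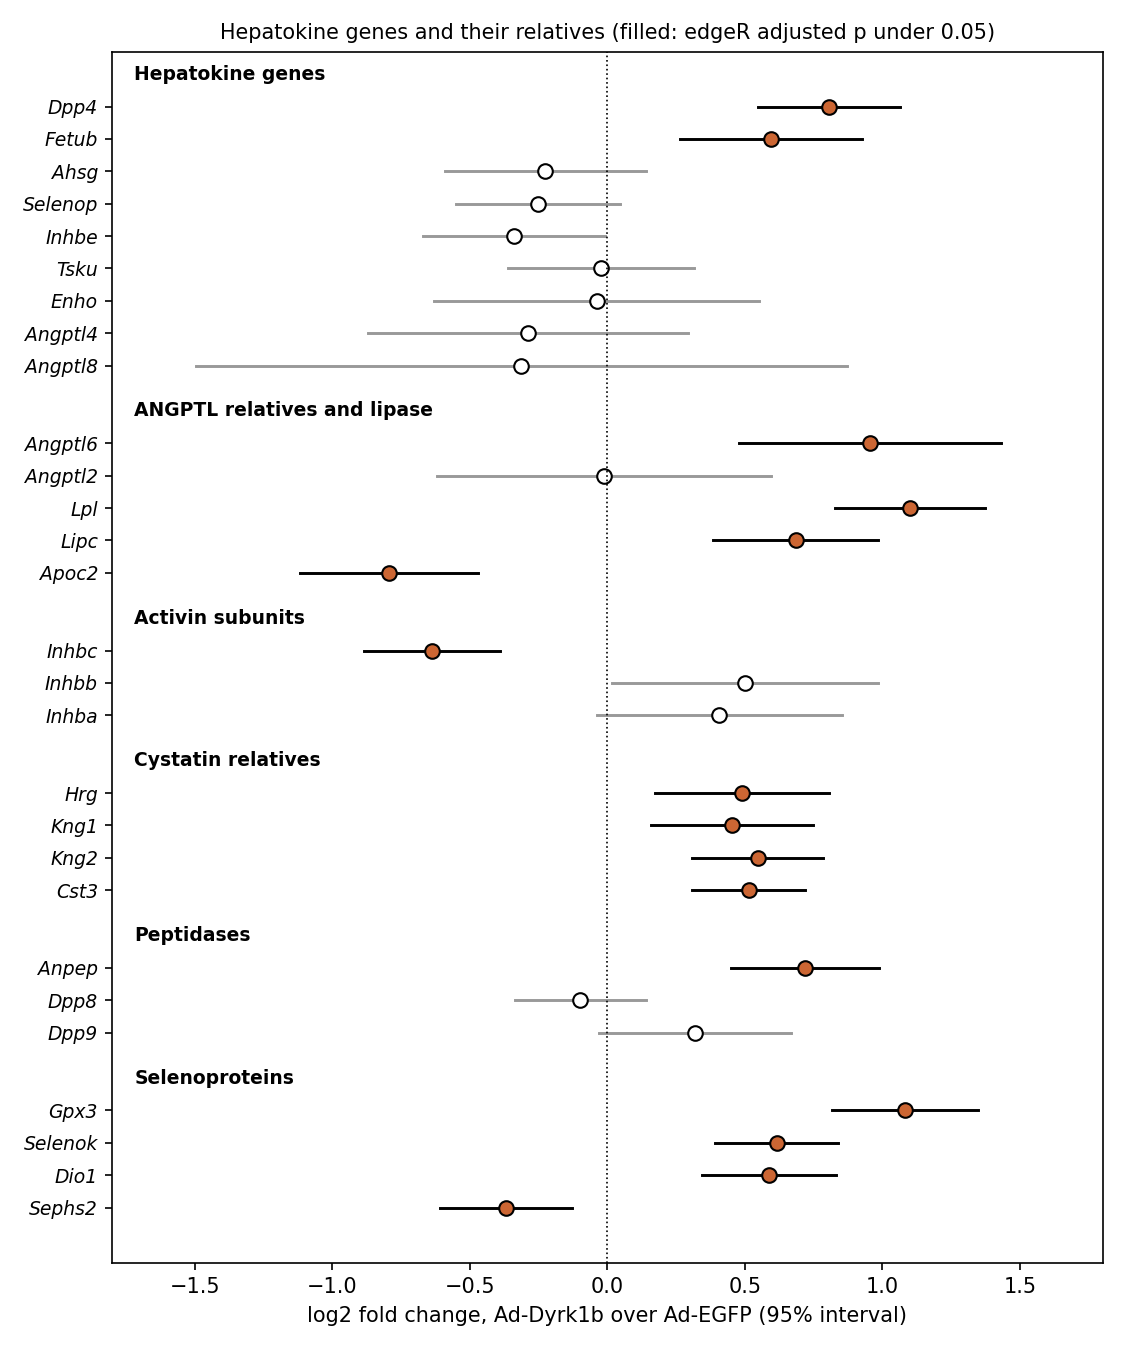
Log2 fold change, Ad-Dyrk1b over Ad-EGFP (horizontal axis), with its 95% interval for the 9 hepatokine genes and for relatives of each, filled where the edgeR adjusted p was under 0.05. Fetub lies at 0.59 with Kng2 at 0.55 and Hrg at 0.49, while Ahsg lies at -0.23, and Inhbc lies at -0.64 beside Inhbe at -0.34.

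Angptl4 and Angptl8, which restrain lipoprotein lipase, had ranges within a group wider than the difference between the group means. Angptl4 (ENSMUSG00000002289, chromosome 17, 33773750 to 33781830, minus strand, 7 exons) stood at 66.3, 115 and 78.0 FPKM in Ad-EGFP libraries 1, 2 and 3. In Ad-Dyrk1b libraries 1, 2 and 3 it stood at 58.6, 84.1 and 56.7 FPKM. The groups overlapped, and replicate 2 was the highest in each. Its log2 fold change was -0.29 ± 0.25 (95% interval -0.87 to 0.29; edgeR adjusted p = 0.495).

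Angptl8 (ENSMUSG00000047822, chromosome 9, 21835510 to 21837347, plus strand, 4 exons) lies within Dock6, which runs on the other strand, and shares 0 exonic bases with it. It stood at 50.7, 16.6 and 43.8 FPKM in Ad-EGFP and at 36.2, 20.5 and 28.7 FPKM in Ad-Dyrk1b libraries 1, 2 and 3. The groups overlapped, and here replicate 2 was the lowest in each. The log2 fold change was -0.31 ± 0.46 (95% interval -1.50 to 0.87; edgeR adjusted p = 0.712), the widest interval of the 9 genes. Dock6 had 256 to 323 counts in Ad-EGFP and 259 to 330 in Ad-Dyrk1b (log2 fold change -0.07, edgeR adjusted p = 0.782).

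The ratio of Angptl8 to Angptl4 therefore varied widely among libraries of a group. It was 0.765, 0.144 and 0.562 in Ad-EGFP and 0.617, 0.244 and 0.506 in Ad-Dyrk1b, with a two-sided exact permutation p of 0.9 (0.9 adjusted over the 4 ratios). Genes that fasting is known to raise or lower were ordered alike. Igfbp1, an IGF-binding protein raised in fasting, stood at 19.5, 82.9 and 53.9 FPKM in Ad-EGFP and 54.0, 145 and 93.6 FPKM in Ad-Dyrk1b libraries 1, 2 and 3. Pdk4, a kinase that spares glucose in fasting, stood at 6.05, 25.5 and 10.7 FPKM and at 18.25, 34.4 and 11.3 FPKM. Both genes were highest in replicate 2 of each group.

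Srebf1, the regulator of lipid synthesis that insulin raises, stood at 35.7, 20.3 and 29.2 FPKM in Ad-EGFP and at 26.1, 12.7 and 17.8 FPKM in Ad-Dyrk1b libraries 1, 2 and 3. Thrsp, a lipogenic gene, stood at 319, 164 and 232 FPKM and at 231, 155 and 229 FPKM. Both were lowest in replicate 2 of each group. These 4 genes were chosen after their values were seen. Of 18 PPAR-alpha targets tested, 8 were highest in replicate 2 of both groups and 0 were lowest, beside 14.5% and 14.8% of all tested genes. Of 15 lipogenic genes tested, 4 were lowest there (Srebf1, Thrsp, Fasn and Nr1h2) and 1 was highest.

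Libraries numbered 2 also differed from the others by gene length. In 916 tested genes under 1 kb the median log2 level, centred over the 6 libraries, was -0.22 in Ad-EGFP replicate 2 and -0.04 in Ad-Dyrk1b replicate 2, beside 0.01 to 0.12 in the other 4. In 3480 genes over 4 kb it was 0.10 and 0.02 there, beside -0.05 to 0.00403. Angptl8, with an implied length of 865 bases, lay at -0.93 and -0.47 in these 2 libraries. The part of gene length in its values was not tested.

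**Figure D3:**
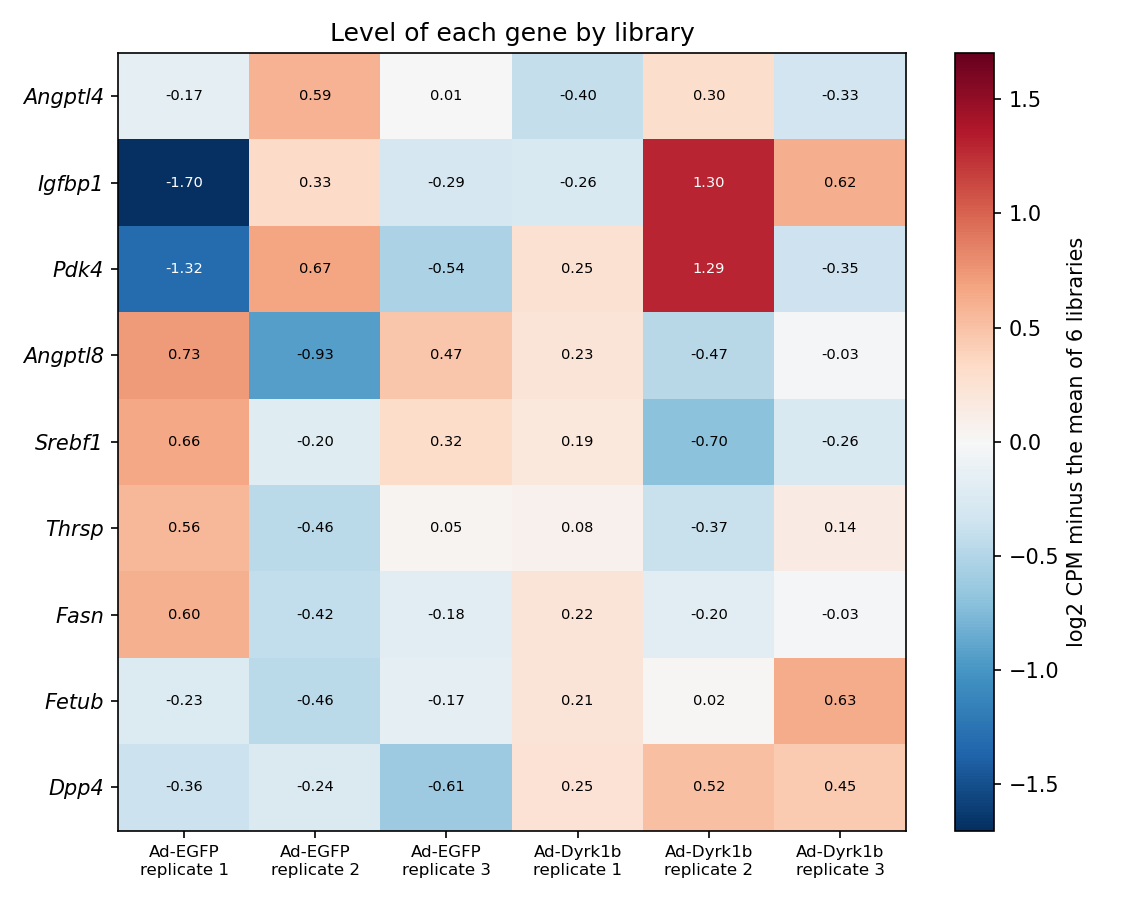
Log2 CPM of each gene in each of the 6 libraries minus its mean over them (colour and printed value), with rows for genes and columns for libraries. In replicate 2 of the groups Angptl4 is at 0.59 and 0.30, and Angptl8 at -0.93 and -0.47, whereas Dpp4 is below 0 in every Ad-EGFP library and above 0 in every Ad-Dyrk1b library.

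Without both libraries numbered 2, which was tried after the data were seen, Angptl4 and Angptl8 had log2 values of -0.29 ± 0.13 and -0.50 ± 0.15 (edgeR adjusted p = 0.210 and 0.0895). Neither was called. Dpp4 and Fetub were called in that fit as well (edgeR adjusted p = 0.00961 and 0.0476).

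The angiopoietin-like relatives and the lipase they act on gave other values. Of 5 relatives 3 were tested and 1 was called, with a median log2 fold change of -0.01. Of all tested genes, 12.2% were called in either direction. Angptl6, a circulating factor linked to energy expenditure, rose by 0.95 ± 0.22 from 2.14 to 2.64 FPKM to 3.50 to 5.56 FPKM (edgeR adjusted p = 0.0152). Dropping Ad-EGFP replicate 3 or Ad-Dyrk1b replicate 3 ended this call (range 0.0180 to 0.0584), and it shares 265 exonic bases with a gene on the other strand.

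In the lipoprotein lipase list 3 of 15 genes were called higher and 1 lower, with a median of 0.11. For this and the marker lists below, the edgeR shares over all tested genes were 7.36% higher and 4.81% lower. Lpl, lipoprotein lipase itself, stood at 73.9, 72.5 and 92.4 FPKM in Ad-EGFP and at 184, 145 and 154 FPKM in Ad-Dyrk1b. The groups did not overlap, and Lpl rose by 1.10 ± 0.13 (edgeR adjusted p = 0.000165). Lpl is mainly a gene of fat, muscle and macrophages. Adipoq, which defines fat cells, had 0 counts in Ad-EGFP and 11, 0 and 1 in Ad-Dyrk1b libraries 1, 2 and 3, and Lep had 0 or 1 count. The 6 adipocyte markers summed to 23.4 to 48.9 CPM against 37.4 to 62.8 CPM, nearly all of it Fabp4, which other cells also express. Fabp4 was the 1 of these tested and edgeR did not call it (log2 fold change 0.65, adjusted p = 0.194), whereas DESeq2 called it higher. The 11 Kupffer cell and macrophage markers summed to 837 to 1518 CPM against 1261 to 1664 CPM, with 1 of 10 called higher by edgeR and 2 by DESeq2, 9 of 10 above 0 and a median of 0.30. The gene edgeR called was Cd68 (0.47, adjusted p = 0.0304), which lost its call without Ad-Dyrk1b replicate 3 and without every other library except Ad-EGFP replicate 2 (range 0.00790 to 0.119). The part of these cells in the Lpl result was not tested.

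Hepatic lipase (Lipc) rose by 0.68 ± 0.14 (edgeR adjusted p = 0.00774), and the lipase maturation factor Lmf1 by 0.47 ± 0.12 (edgeR adjusted p = 0.0261). The call for Lmf1 was kept only without Ad-EGFP replicate 1 or Ad-Dyrk1b replicate 3 (range 0.0185 to 0.111). Apoc2, the activator of lipoprotein lipase, stood at 662, 519 and 687 FPKM in Ad-EGFP and at 418, 321 and 282 FPKM in Ad-Dyrk1b. It fell by 0.79 ± 0.15 (edgeR adjusted p = 0.00523), and 646 of its exonic bases belong also to Gm44805 on the same strand.

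By edgeR, 7.36% of all tested genes were called higher and 4.81% lower. Of 18 PPAR-alpha targets, the group to which Angptl4 also belongs, 4 were called higher and 0 lower, with a median of 0.29. These were the fatty acid hydroxylases Cyp4a10 (2.18 ± 0.15) and Cyp4a14 (1.12 ± 0.13), the pantetheinase Vnn1 (1.78 ± 0.17) and the thioesterase Acot1 (0.97 ± 0.25). Acot1 (edgeR adjusted p = 0.0479) remained called only when Ad-Dyrk1b replicate 3 was dropped (range 0.000232 to 0.141). The Cyp4a genes are related copies, so the split of reads among them is uncertain. Angptl4, Pdk4 (0.73, edgeR adjusted p = 0.581) and Cpt1a (0.04, edgeR adjusted p = 0.856) were not called.

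Of 15 tested lipogenic genes, which like Angptl8 rise with feeding, 0 were called higher and 2 lower. Their median was -0.12, and 12.2% of all tested genes were called in either direction. Of the 2 lower genes, Acaca (acetyl-CoA carboxylase) fell by 0.37 ± 0.10 (edgeR adjusted p = 0.0331). It passed with a library dropped only if that was Ad-EGFP replicate 3 (range 0.0334 to 0.123).

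Inhbe (ENSMUSG00000047492, chromosome 10, 127348857 to 127354411, minus strand, 2 exons) encodes the activin E subunit, which liver secretes and which restrains lipolysis in fat. It stood at 4.63, 3.65 and 4.70 FPKM in Ad-EGFP and at 3.08, 2.81 and 3.81 FPKM in Ad-Dyrk1b libraries 1, 2 and 3. Ad-EGFP replicate 2 lay below Ad-Dyrk1b replicate 3, so the groups overlapped. The log2 fold change was -0.34 ± 0.15 (95% interval -0.67 to -0.00860). The unadjusted p of 0.0451 gave an edgeR adjusted p of 0.165, and the gene was not called in any of the 16 alternatives.

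Inhbc, the activin C subunit gene next to Inhbe within the same 21.6 kb, did fall. It stood at 23.4, 19.8 and 23.4 FPKM in Ad-EGFP and at 14.2, 12.5 and 13.7 FPKM in Ad-Dyrk1b, without overlap. On CPM scaled by TMM its groups were apart as well, as were those of 16.7% of tested genes in this direction. Its log2 fold change was -0.64 ± 0.11 (edgeR adjusted p = 0.00352), and the call held when any 1 library was left out. The ratio of Inhbe to Inhbc was 0.184 to 0.201 in Ad-EGFP and 0.217 to 0.278 in Ad-Dyrk1b (two-sided exact permutation p = 0.1, 0.133 adjusted over the 4 ratios).

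Of 15 tested genes of the activin and inhibin pathway besides Inhbe, Inhbc was the 1 called, and 0 were called higher. Their median log2 fold change was 0.10, and 12.2% of all tested genes were called in either direction. The subunit genes Inhbb and Inhba had 0.50 ± 0.22 and 0.41 ± 0.20 (edgeR adjusted p = 0.163 and 0.214), at 1.09 to 2.26 and 1.37 to 2.56 FPKM over all libraries. Tgfbr3, the inhibin coreceptor betaglycan, had 0.52 ± 0.20 (edgeR adjusted p = 0.106).

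Selenop (ENSMUSG00000064373, chromosome 15, 3268547 to 3280508, plus strand, 5 exons) carries selenium from the liver to other organs and is raised in type 2 diabetes. It stood at 2765, 3057 and 2460.6 FPKM in Ad-EGFP and at 2085, 2364 and 2092 FPKM in Ad-Dyrk1b libraries 1, 2 and 3. On this scale the groups did not overlap, but on CPM scaled by TMM they did. The log2 fold change was -0.25 ± 0.14 (95% interval -0.55 to 0.05; edgeR adjusted p = 0.251). It was below 0 in all 16 alternatives, from -0.35 to -0.18, and was called in none of them. Ccdc152, which shares 439 exonic bases with Selenop on the other strand, had 4 to 26 counts per library, against at least 77558 for Selenop.

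Of 29 other selenoproteins and genes of selenium handling, 3 were called higher and 1 lower. Their median was 0.11, and 12.2% of all tested genes were called in either direction. Gpx3, the plasma glutathione peroxidase that uses selenium delivered by selenoprotein P, stood at 19.8, 23.3 and 19.95 FPKM in Ad-EGFP and at 37.9, 39.4 and 48.0 FPKM in Ad-Dyrk1b. It rose by 1.08 ± 0.12 (edgeR adjusted p = 0.000154). Selenok, a protein of the endoplasmic reticulum, rose by 0.62 ± 0.10, and Dio1, the deiodinase that activates thyroid hormone, by 0.59 ± 0.11 (edgeR adjusted p = 0.00245 and 0.00555). Omitting any 1 library ended none of these 3 calls. Sephs2, which makes the selenium donor for selenoprotein synthesis, stood at 251, 218.5 and 246 FPKM in Ad-EGFP and 188, 162 and 173 FPKM in Ad-Dyrk1b. It fell by 0.37 ± 0.11 (edgeR adjusted p = 0.0474), and passed with a library dropped only if that was Ad-EGFP replicate 2 (range 0.0383 to 0.179).

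Tsku and Enho had the smallest log2 fold changes of the 9. Tsku (ENSMUSG00000049580, chromosome 7, 98350668 to 98361328, minus strand, 4 exons) stood at 223, 164 and 183 FPKM in Ad-EGFP and at 214, 139 and 179 FPKM in Ad-Dyrk1b libraries 1, 2 and 3. The libraries of the 2 groups interleaved, and the log2 difference was -0.02 ± 0.16 (95% interval -0.36 to 0.31; edgeR adjusted p = 0.937). The sign differed between alternatives. Scarb1, the HDL receptor, rose by 0.43 ± 0.11 (edgeR adjusted p = 0.0232), a call lost without Ad-EGFP replicate 1 or Ad-Dyrk1b replicate 2 or 3 (range 0.0333 to 0.104). Fzd4, a Wnt receptor to which tsukushi has been reported to bind, stood at 2.72, 2.77 and 2.35 FPKM in Ad-EGFP and at 3.96, 3.89 and 4.48 FPKM in Ad-Dyrk1b. It rose by 0.74 ± 0.13 (edgeR adjusted p = 0.00290).

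Enho (ENSMUSG00000028445, chromosome 4, 41638144 to 41640324, minus strand, 2 exons) had only 67 to 141 counts per library. It stood at 4.13, 3.02 and 6.41 FPKM in Ad-EGFP and at 3.63, 3.78 and 5.02 FPKM in Ad-Dyrk1b, where every library lay within the Ad-EGFP range. The log2 fold change was -0.04 ± 0.27 (95% interval -0.63 to 0.55; edgeR adjusted p = 0.940). Some alternatives gave it the opposite sign. Nr1d1, the clock repressor REV-ERB-alpha, fell by 0.82 ± 0.19 (edgeR adjusted p = 0.0173). Leaving out Ad-EGFP replicate 3 or Ad-Dyrk1b replicate 3 kept the call, and each other omission ended it (range 0.00660 to 0.0637), and it shares 263 exonic bases with Thra on the other strand. Gpr19, a proposed adropin receptor, had -0.51 ± 0.23 (edgeR adjusted p = 0.164). Of 12 tested genes in the list of regulators and partners of Enho and Tsku, 2 were called higher and 1 lower. Their median was -0.02, and 12.2% of all tested genes were called in either direction.

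Among 25 other secreted regulators of metabolism, 22 were tested, 6 were called higher and 0 lower, with a median of 0.28. The shares over all tested genes were 7.36% higher and 4.81% lower. Serpinb1a, a protease inhibitor that promotes beta cell growth, stood at 6.02, 5.02 and 3.82 FPKM in Ad-EGFP and at 22.3, 23.1 and 19.4 FPKM in Ad-Dyrk1b (log2 fold change 2.34 ± 0.15, edgeR adjusted p = 2.42e-06). Lect2, a hepatokine linked to insulin resistance in muscle, stood at 73.6, 67.8 and 72.5 FPKM in Ad-EGFP and at 107, 78.3 and 94.4 FPKM in Ad-Dyrk1b. It rose by 0.47 ± 0.11 (edgeR adjusted p = 0.0170), a call lost without Ad-EGFP replicate 2 or 3 or Ad-Dyrk1b replicate 1 (range 0.0132 to 0.0649). The acute-phase protein gene Orm2 rose by 1.68 ± 0.30 and the stress-induced factor gene Manf by 0.65 ± 0.16 (edgeR adjusted p = 0.0180 and 0.0223). The call for Orm2 was lost without Ad-EGFP replicate 1 or Ad-Dyrk1b replicate 1 or 2 (range 0.00169 to 0.0971). That for Manf was lost without Ad-EGFP replicate 1 or 2 or Ad-Dyrk1b replicate 1 (range 0.0114 to 0.0791). The 2 other called genes were Igfbp2 and Bmp6, with 1.81 ± 0.36 and 0.82 ± 0.22 (edgeR adjusted p = 0.0307 and 0.0299). Igfbp2 was no longer called on dropping replicate 1 of either group (range 0.0264 to 0.121). Bmp6 was no longer called on dropping Ad-EGFP replicate 1, 2 or 3 or Ad-Dyrk1b replicate 3 (range 0.0286 to 0.111). Fgf21 and Gdf15, the liver's best known stress hormones, had 0.25 and 0.34 (edgeR adjusted p = 0.386 and 0.137), and were, like Igfbp2, Bmp6, Pdk4, Cpt1a and the markers Cd3e, Cd3d, Krt19, Epcam, Adipoq and Lep, named after their values were seen.

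The genes whose log2 CPM followed each hepatokine most closely over the 6 libraries are given as a description, since with so few libraries many genes reach a high r. For Dpp4 these were Slc1a2 (r = 0.995), a glutamate transporter of hepatocytes around the central vein, Adpgk (r = 0.994) and Syt1 (r = 0.994), and all 3 were called higher themselves. For Fetub they were Pigp, Plcb4 and Mpc1 (r = 0.994, 0.993 and 0.990), none of them called. For Angptl8 they were Atp5md, Cox7c and Pigyl (r = 0.998, 0.988 and 0.984), of which the first 2 encode small mitochondrial subunits. For Angptl4 they were Susd6, Arid5b and Fam107a (r = 0.992, 0.990 and 0.983). The remaining genes had their closest pattern with Cyp4f13 (Ahsg, r = 0.988), Strada (Inhbe, r = 0.997), Hpx (Enho, r = 0.975), Ppie (Tsku, r = 0.996) and Actn4 (Selenop, r = 0.997).

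**Figure D4:**
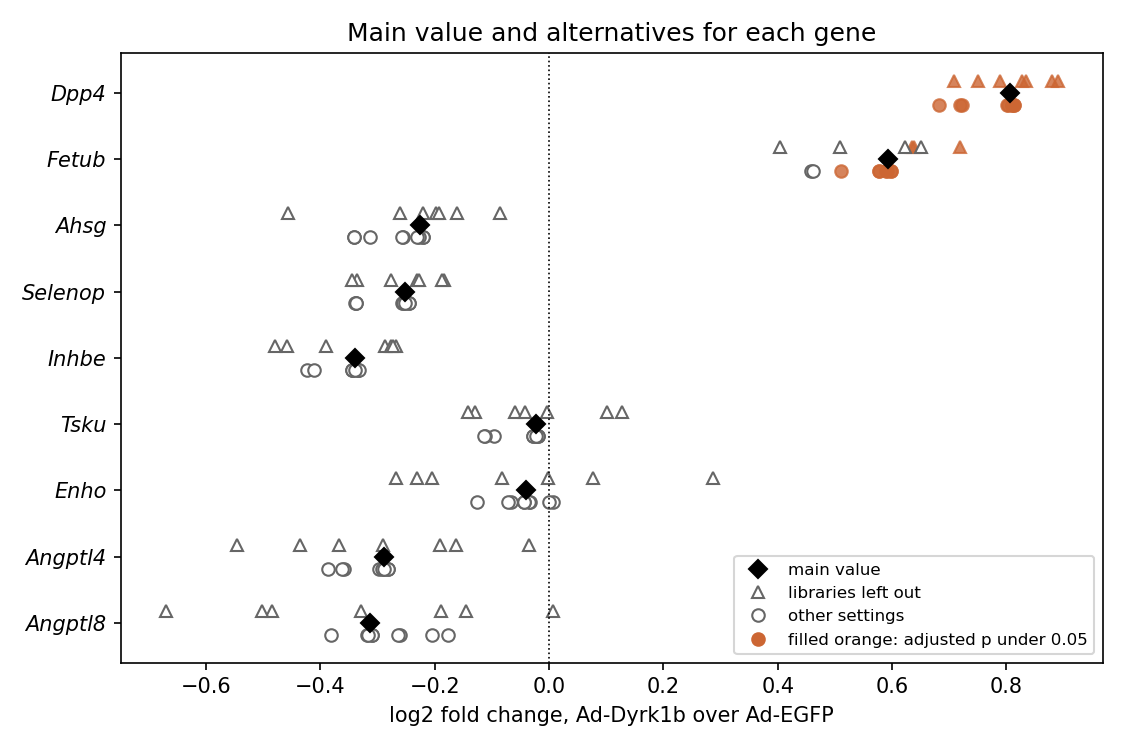
Log2 fold change, Ad-Dyrk1b over Ad-EGFP (horizontal axis), of the 9 genes in the main fit (diamonds), with libraries left out (triangles) and under other settings (circles), filled in orange where the adjusted p was under 0.05. Dpp4 was called in all 16 alternatives, from 0.68 to 0.89, Fetub in 10 of them, from 0.40 to 0.72, and the other 7 genes in none.

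In the authors' deposited table, the adjusted p was 2.01e-07 for Dpp4 and 0.00243 for Fetub. For the other 7 genes the authors' deposited table gave adjusted p-values of 0.234 (Selenop) to 0.968 (Enho).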

How the data were processed

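Per the file headers, the authors gave a whole-number count and an FPKM value for each gene in each library. The deposited file also held the authors' mean FPKM per group, the log2 ratio of those means, and a p-value with its adjusted value. The submitters' processing notes name mm10 and DESeq2. No source used here names an aligner, a counter with its strand setting, or an annotation. Groups came from the titles. Genes were located in GENCODE M21 (GRCm38).

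Counts were tested with edgeR 4.0.16 (R 4.3.3): filterByExpr (minimum count 10, minimum total 15), TMM, a robust quasi-likelihood fit and Benjamini-Hochberg adjustment over 13201 genes. Each log2 fold change sets Ad-Dyrk1b over Ad-EGFP, with its SE. In counts simulated for this comparison over 13201 genes, 200 genes were changed. Of these, 68% of 2-fold and 97% of 4-fold changes were called, and 8.33% of calls were false. The data themselves had 1607 calls, so these rates may not carry over. Changes under 2-fold were not simulated. Depth was 17326516 to 20024888 counts, so 3 counts equal 0.150 to 0.173 CPM, which covers counting error only.

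The genes and lists were chosen with earlier results of these data known. The rule for named genes took the 9 genes, Dyrk1b, up to 4 genes of each list with the smallest p, genes overlapping the 9, named paralogs and neighbours, and the 3 genes closest in pattern (tested genes with a mean of at least 1 FPKM). Alternatives were DESeq2 1.42.0, limma 3.58.1 (voom on counts, and trend on log2 FPKM with a pseudocount of 1 or 0.1), other scalings, no filter, a replicate block and each library left out. The list of cell markers also held B cells, neutrophils and monocytes, stellate cells, erythroid cells and pancreas, and 1 hepatocyte marker symbol, Tf, was not matched. B cell markers had 0 of 4 tested members called (1 at an unadjusted p under 0.05), neutrophil and monocyte markers 1 of 6 (Ly6c2, higher, lost on leaving out any 1 library), stellate cell markers 0 of 10 (2), erythroid markers 0 of 6 (0) and pancreas markers 0 of 1 (1). For these 4 lists with 0 calls by edgeR, limma-voom also called 0, and DESeq2 called 1 stellate marker higher and 1 lower. Results for some genes of the lists, and 1 of the 4 ratios computed, are not reported here.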

Additional observations from a re-analysis of the deposited data

How the results depend on the processing

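Dpp4 was called higher in all 16 alternatives. Fetub was not called with limma-trend on FPKM (log2 fold change 0.46 with either pseudocount, adjusted p = 0.112 and 0.110), and ranged from 0.40 to 0.72 with 1 library left out. The number of the 9 genes called higher was therefore 1 on FPKM and 1 to 2 with 1 library left out. Signs turned above 0 for Enho with limma-voom (0.00601) and the replicate block (0.000543). With 1 library left out Enho ranged from -0.27 to 0.29, Tsku from -0.14 to 0.13 and Angptl8 from -0.67 to 0.00628.

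Over all genes, 972 were called higher and 635 lower, against 694 and 1051 with library totals only, 566 and 712 on log2(FPKM + 1), and 569 and 725 on log2(FPKM + 0.1). Counts were 612 to 800 higher and 294 to 461 lower with 1 library left out, and 447 and 186 without both libraries numbered 2, where fewer samples were tested. Called genes in the lists were 7 of the PPAR-alpha targets with DESeq2. Cystatin genes were 2 with upper-quartile factors, library totals or FPKM. On FPKM, other secreted regulators were 3 and lipogenic genes 1. Without both libraries numbered 2, lipoprotein lipase genes were 2, cystatin genes 1, selenium genes 2, lipogenic genes 1, and regulators of Enho and Tsku 1. With 1 library left out the ranges were 2 to 5 (other secreted regulators), 0 to 1 (angiopoietin-like), 1 to 2 (activin), 2 to 4 (cystatin), 1 to 2 (peptidases), 0 to 2 (lipogenic) and 1 to 3 (regulators of Enho and Tsku). Apart from the construction of the fits, the cause was not tested.

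Samples with the same number correlated at r = 0.0245, 0.172 and 0.108 in their deviations from the group means. Samples with different numbers correlated at r = -0.207 to 0.0845. These values do not decide whether the numbers pair samples. The labels do not state a pairing, so the main fit held no block. With the replicate block 1109 genes were called higher and 774 lower, 7 in the lipoprotein lipase list and 9 among PPAR-alpha targets. The block changed the call of none of the 9 genes (Fetub adjusted p = 0.00831, Angptl4 adjusted p = 0.0655, both edgeR). Enho, with 67 to 141 counts, is the gene most limited by depth.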
